A study of Mus musculus with 2 samples.

Results

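The kinase, adaptor and scaffold genes of the Hippo pathway were followed in endothelial cells sorted on CD31, a surface protein of endothelium, from mouse tumours. The list holds 10 genes, taken by their symbols and roles in the pathway: the kinases Stk3, Stk4, Lats1 and Lats2, the adaptors Sav1, Mob1a and Mob1b, and the scaffolds Wwc2, Amotl1 and Amotl2. All 10 were present in both deposited tables, which hold 19831 genes each. The cells came from adult mice of the C57BL/6 strain and were profiled by droplet single-cell RNA sequencing with 10x Genomics 3′ v3.1 chemistry, 1 library for a control titled as such and 1 for NF2 KO, the knockout of the gene of merlin. The sources used here do not give the kind of tumour, how many mice were pooled, the way in which Nf2 was removed or the exons affected. Nf2 itself stood at 21.3 CPM (UMIs per 1000000 UMIs, where a UMI marks 1 captured molecule) in control cells and 20.2 CPM in knockout cells. Tags from the 3′ end of the transcript need not lie in the deleted part, so this level checks nothing about the labels.

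In the Hippo pathway, kinases acting in series hold back YAP and TAZ, which are coactivators of transcription. Merlin recruits the pathway to the cell cortex. There the MST kinases, encoded by Stk3 and Stk4, act with the adaptor SAV1 to activate the LATS kinases, which need MOB1 as a coactivator and which phosphorylate YAP and TAZ so that these stay in the cytoplasm. WWC2 is a scaffold that promotes LATS activity, and the angiomotin family, to which AMOTL1 and AMOTL2 belong, binds YAP and TAZ at cell junctions and sustains endothelial junctions. Amotl2 and Lats2 are also known as targets of YAP and TAZ, so that the pathway restrains itself. Transcript levels do not show the activity of a kinase.

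With 1 library listed per condition and no stated replicate, no test was made. Each comparison is therefore given as the ratio of CPM, knockout over control, with an exact 95% interval that covers counting error only. A gene was counted as past the size rule where the ratio was at least 1.5 in either direction, the interval excluded 1 and the mean CPM of both libraries was at least 20. The cells of each library carried the number 1 or 2 in their names. The labels do not say what these numbers stand for. They are called runs here and were treated as parts of 1 library, so that their values show the spread within it. The cells kept after filtering numbered 1560 in the control (957 and 603 in runs 1 and 2) and 2751 in the knockout (1135 and 1616). They held 27353126 and 51961262 UMIs, with a median of 15609.5 and 16869 UMIs per cell. Control run 1 was the shallowest, at a median of 11407 UMIs, and control run 2 the deepest, at 21254. Pairs of runs shared 0 or 1 cell barcodes, within a library as between libraries, so the runs held different cells. Whether they were separate captures or came from different mice is not stated.

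The endothelial identity of the kept cells was checked with 19 markers, all detected in both libraries. They summed to 11333 CPM in control cells and 9073 CPM in the knockout. Markers of other cell types also differed between libraries: 11 pericyte or smooth muscle markers, all detected in both, summed to between 150.1 and 197 CPM in the control runs and between 49.8 and 70.6 CPM in the knockout runs. The 7 epithelial markers summed to between 6.08 and 9.65 CPM in the control runs and between 30.6 and 36.7 CPM in the knockout runs, with Krt7 at 0 in both libraries and Krt19 at 0 in the control. Erythrocyte markers summed to between 21.8 and 82.0 CPM in the control runs and between 4.30 and 33.5 CPM in the knockout runs. The epithelial list holds Cldn4 and the pericyte or smooth muscle list holds Kcnj8, and both are among the leading genes of states described below. The part of these markers in the results was not tested.

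Between the libraries, 1 of the 10 genes passed the size rule: Amotl2, which was higher in the knockout. Of the 10, 9 had the mean CPM of 20 that the rule asks for, and Stk4, with a mean of 17.3 CPM, did not. Over all genes with enough counts, 8.13% passed in either direction (474 of 5829) and 2.78% passed as higher in the knockout, so 1 of 9 is near the background. The median log2 ratio of the 9 genes was 0.05, against -0.03 over all genes. The spread within libraries was smaller: 0.7% of genes passed the same rule between the control runs and 1.23% between the knockout runs, with none of the 10 genes among them.

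**Figure D1:**
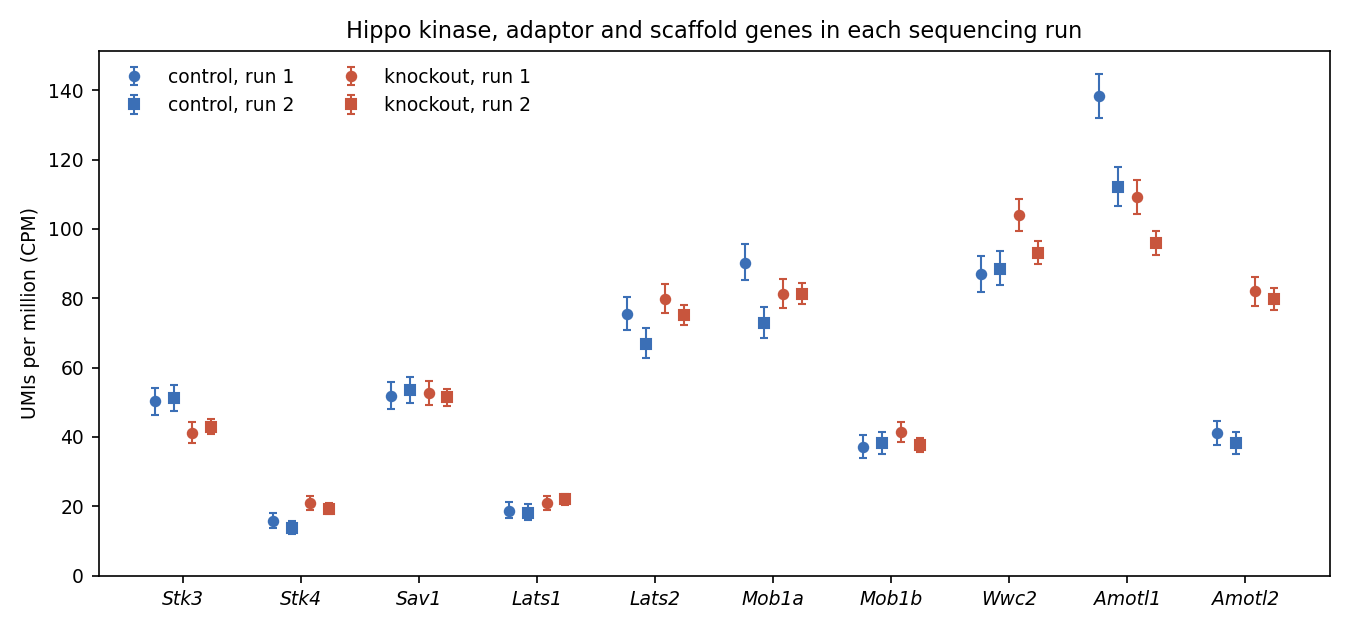
Level of each gene in each of the 4 runs, in CPM (linear axis), as points with exact Poisson 95% intervals that cover counting error only; blue is control, red is knockout, circles are run 1 and squares run 2. Runs are the numbers in the cell names, whose meaning is not stated. Amotl2 stood at 41.1 and 38.2 CPM in the control runs and at 82.0 and 79.7 CPM in the knockout runs, while Sav1, Lats2, Mob1a and Mob1b overlapped between the libraries.

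Among the MST kinases and their adaptor, Stk3 was the more abundant transcript. Stk3 stood at 50.2 and 51.2 CPM in the control runs and at 41.3 and 43.0 CPM in the knockout runs, a ratio of 0.836 (0.781 to 0.894). Stk4, at 15.7 and 13.8 CPM in control cells and 20.9 and 19.3 CPM in the knockout, had a ratio of 1.35 (1.2 to 1.52). The paralogues thus lay on opposite sides of 1, the knockout runs both below the control runs for Stk3 and both above them for Stk4, though neither reached 1.5. Sav1, the MST partner, stood at 51.9 and 53.5 CPM in control cells and 52.6 and 51.4 CPM in the knockout. Its runs overlapped, and its ratio was 0.983 (0.922 to 1.05).

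The LATS kinases and their MOB1 coactivators lay within 1.2-fold of the control. Lats2 stood at 75.5 and 66.9 CPM in control cells and 79.8 and 75.1 CPM in the knockout, a ratio of 1.08 (1.02 to 1.14). Lats1 was lower in level, at 18.8 and 18.2 CPM in control cells and 20.9 and 21.97 CPM in the knockout, a ratio of 1.17 (1.05 to 1.30). The knockout runs of Lats1 were both above those of the control, whereas those of Lats2 overlapped with them. Mob1a stood at 90.3 and 72.9 CPM in control cells and at 81.3 CPM in both knockout runs, so that the control runs lay on either side of the knockout, and the ratio was 1.0 (0.95 to 1.05). Mob1b stood at 37.0 and 38.2 CPM in control cells and 41.4 and 37.6 CPM in the knockout, with overlapping runs and a ratio of 1.04 (0.961 to 1.12). A 3′ tag counts a molecule once whatever its length. How well the 3′ end of each gene was captured and assigned was not checked. Levels of different genes are therefore set side by side only as tags counted.

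Of the scaffolds, Wwc2 stood at 86.8 and 88.6 CPM in control cells and 104 and 93.1 CPM in the knockout, a ratio of 1.11 (1.05 to 1.16). Amotl1, the most abundant of the 10 transcripts in either library, stood at 138 and 112 CPM in control cells and 109 and 95.9 CPM in the knockout. Its ratio was 0.807 (0.773 to 0.843). The knockout runs of Amotl1 were both below those of the control, but the lower control run and the higher knockout run were closer to each other than the control runs were. Amotl2 went the other way, from 41.1 and 38.2 CPM in the control to 82.0 and 79.7 CPM in the knockout, or 1083 and 4185 UMIs in all. Its ratio was 2.03 (1.90 to 2.18), and the runs of each library were close to each other and far from those of the other. Of the 9 genes with enough counts, 3 had both knockout runs above both control runs and 2 had both below. Over all genes the shares were 28.8% and 37.5%, together 66.3%, so separation of the runs alone is common here.

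The genes lie on 9 chromosomes of GRCm38, the assembly also known as mm10. Amotl2 (ENSMUSG00000032531.15) lies at chr9:102716672-102733418 on the plus strand and Amotl1 (ENSMUSG00000013076.17) at chr9:14541966-14645056 on the minus strand, by GENCODE M21. Stk3 lies at chr15:34875496-35178921, Stk4 at chr2:164070322-164155524, Sav1 at chr12:69965012-69987002, Lats1 at chr10:7681214-7716460 and Lats2 at chr14:57689662-57758388. Mob1a lies at chr6:83326016-83343776, Mob1b at chr5:88720855-88764220 and Wwc2 at chr8:47823959-47990924. Annotated genes overlap Lats2 (Gm49361), Stk4 (Gm11455) and Amotl1 (4930584E12Rik) on the same strand, so counting could have split or dropped tags there, and the levels of these 3 genes are uncertain to that extent. No gene overlaps Amotl2, Mob1a, Lats1 or Stk3 on either strand.

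The bases before the start site are shown for the 2 angiomotin genes, which differed in opposite directions, and for Ajuba, a LIM-domain gene that restrains LATS and that was also higher in the knockout. Sequences are from RefSeq (GRCm38.p6), 250 bases up to the start site, 5′ to 3′ on the strand of the gene. Capitals mark GGAATG, the core that TEAD factors, the DNA-binding partners of YAP and TAZ, are known to bind, searched on both strands, so that it can also read CATTCC.
Amotl2 (chr9:102717554-102717803, plus strand): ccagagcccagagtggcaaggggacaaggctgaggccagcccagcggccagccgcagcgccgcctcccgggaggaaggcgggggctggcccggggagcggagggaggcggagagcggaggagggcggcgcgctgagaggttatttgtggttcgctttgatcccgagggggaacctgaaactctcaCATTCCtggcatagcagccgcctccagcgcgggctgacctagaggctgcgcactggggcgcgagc
Ajuba (chr14:54577662-54577911, minus strand): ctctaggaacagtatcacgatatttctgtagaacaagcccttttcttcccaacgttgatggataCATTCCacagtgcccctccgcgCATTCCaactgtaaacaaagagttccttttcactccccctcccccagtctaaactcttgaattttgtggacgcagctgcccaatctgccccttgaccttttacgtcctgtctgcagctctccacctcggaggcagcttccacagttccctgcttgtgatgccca
Amotl1 (chr9:14615001-14615250, minus strand): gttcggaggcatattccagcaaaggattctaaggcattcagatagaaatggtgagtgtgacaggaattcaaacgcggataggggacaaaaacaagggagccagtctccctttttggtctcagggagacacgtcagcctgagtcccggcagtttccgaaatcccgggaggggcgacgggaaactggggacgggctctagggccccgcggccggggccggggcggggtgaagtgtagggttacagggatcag
The Amotl2 window holds 1 match, beginning 65 bases before the start site, the Ajuba window holds 2 and the Amotl1 window none. Of the 10 genes, 9 had a window, and the 6 letters were found in 4 of them: Amotl2, Mob1a, Sav1 and Wwc2, which had 3. Mob1a, Sav1 and Wwc2 had ratios of 1.0, 0.983 and 1.11, short of the size rule. Ajuba is not among the 10 and was shown with its ratio known, so the windows printed show no link of matches with direction. Of all 32851 windows, 12.6% held the 6 letters. The longer form GGAATGT, which contains the first, occurred in 3.25% of windows and in those of Amotl2 and Wwc2. The start sites used by RefSeq for Amotl2 and Amotl1 lie inside the GENCODE genes, so these windows overlap the gene bodies given above. A match is a run of letters and not a measured binding site.

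The balance within pairs of related genes differed between the libraries for 2 of 4 pairs, with no share over other pairs of genes computed. Amotl2 gave 24.1% of the UMIs of Amotl1 and Amotl2 together in the control (22.9 to 25.4, exact Clopper-Pearson 95% interval) and 44.5% in the knockout (43.4 to 45.5). By run the share was 22.9% and 25.4% in the control and 42.9% and 45.4% in the knockout. Stk4 gave 22.5% (20.6 to 24.5) of the UMIs of Stk3 and Stk4 in the control and 31.95% (30.3 to 33.6) in the knockout, by run 23.8% and 21.3% against 33.7% and 31.0%. In both pairs the intervals of the libraries and the values of their runs were apart. Runs apart are common here, at 66.3% of single genes, and neither Stk3 nor Stk4 passed the size rule. Lats2 gave 79.4% of the UMIs of Lats1 and Lats2 in the control and 78.1% in the knockout, and Mob1a 68.3% and 67.6% of those of Mob1a and Mob1b. For these pairs the intervals of the libraries overlapped.

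The kept cells were clustered into 12 states, each named only where markers among its leading genes allowed it. Of these, 11 are described: a hypoxia-like state led by Vegfa and Bnip3, an S phase-like state, 2 G2/M phase-like states led by histone genes and by Ccnb2, an interferon-like state led by Ubd and Cd74, another led by Rsad2 and Ifit3, a venous-like state led by Ackr1, and 4 unnamed states led by Ramp3 and Ednrb, by Cldn4 and F2rl1, by Piezo2 and Gal, and by Cyp4b1 and Sult1a1. Ramp3 and Ednrb are capillary markers, but the 13 capillary markers together stood at 5621 CPM in the state they led and 5222 CPM in the other cells, so the state was given no name. In the Cyp4b1 Sult1a1 state they summed to 12279 CPM, against 4925 CPM in the other cells. They held from 36 to 331 control cells and from 65 to 484 knockout cells each. The smallest control samples were those of the Cyp4b1 Sult1a1 state (36 cells) and the S phase-like state (40 cells), and the Cldn4 F2rl1 state held 52 control and 387 knockout cells. The states were set after each library's mean per gene had been subtracted. In the first clustering, made without this, a cluster with Gal, Kcnj8 and Piezo2 among its leading genes held 526 control and 17 knockout cells. One led by Cldn4 and F2rl1 held 55 and 866. Control and knockout cells of the Piezo2 Gal and the Cldn4 F2rl1 state therefore need not be alike. The last state, shallow and led by S100a9 and S100a8, which are neutrophil genes, is set apart.

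In each of the 11 states Amotl2 was higher in the knockout, with an interval that excluded 1. A ratio above 1 in all 11 states held for 4.69% of 4480 genes with enough counts in every state. The size rule was passed in 9 states, against 0.58% of genes that passed as higher in at least 9. In single states 2.47% to 5.74% of genes passed as higher. The exceptions were the Ramp3 Ednrb state, with 65.6 CPM in control cells and 84.7 CPM in the knockout, a ratio of 1.29 (1.13 to 1.48), and the venous-like state, with 56.4 and 82.7 CPM, a ratio of 1.47 (1.10 to 1.97). Those were the 2 states with the highest control level of Amotl2. The control level is the divisor of the ratio, so this order is in part built in. The lowest control level, 26.5 CPM, was in the Piezo2 Gal state, which had 81.3 CPM in the knockout and the highest ratio, 3.07 (2.53 to 3.74). The interval of this ratio did not overlap with that of the Ramp3 Ednrb state. Since the control and knockout cells of the Piezo2 Gal state need not be alike, its ratio may not compare like with like.

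Amotl2 levels in the knockout were more alike from state to state than in the control. From the lowest to the highest state they spanned 2.48-fold in the control, from 26.5 to 65.6 CPM, and 1.74-fold in the knockout, from 68.7 CPM in the Ccnb2 state to 119 CPM in the Cyp4b1 Sult1a1 state. In the control the Ramp3 Ednrb state was first and the venous-like state next, with overlapping intervals, and the other 9 followed between 26.5 and 42.2 CPM. In the knockout the Cyp4b1 Sult1a1 state stood apart (108 to 131 CPM), while the intervals of the other states overlapped with their neighbours in the order. Its ratio of 2.82 (1.63 to 5.35) rests on 13 control UMIs. The ratio was 2.02 in the hypoxia-like state, 2.58 in the Cldn4 F2rl1 state, 2.33 in the S phase-like state, 1.84 and 1.81 in the G2/M phase-like states, and 2.08 and 1.91 in the interferon-like states.

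**Figure D2:**
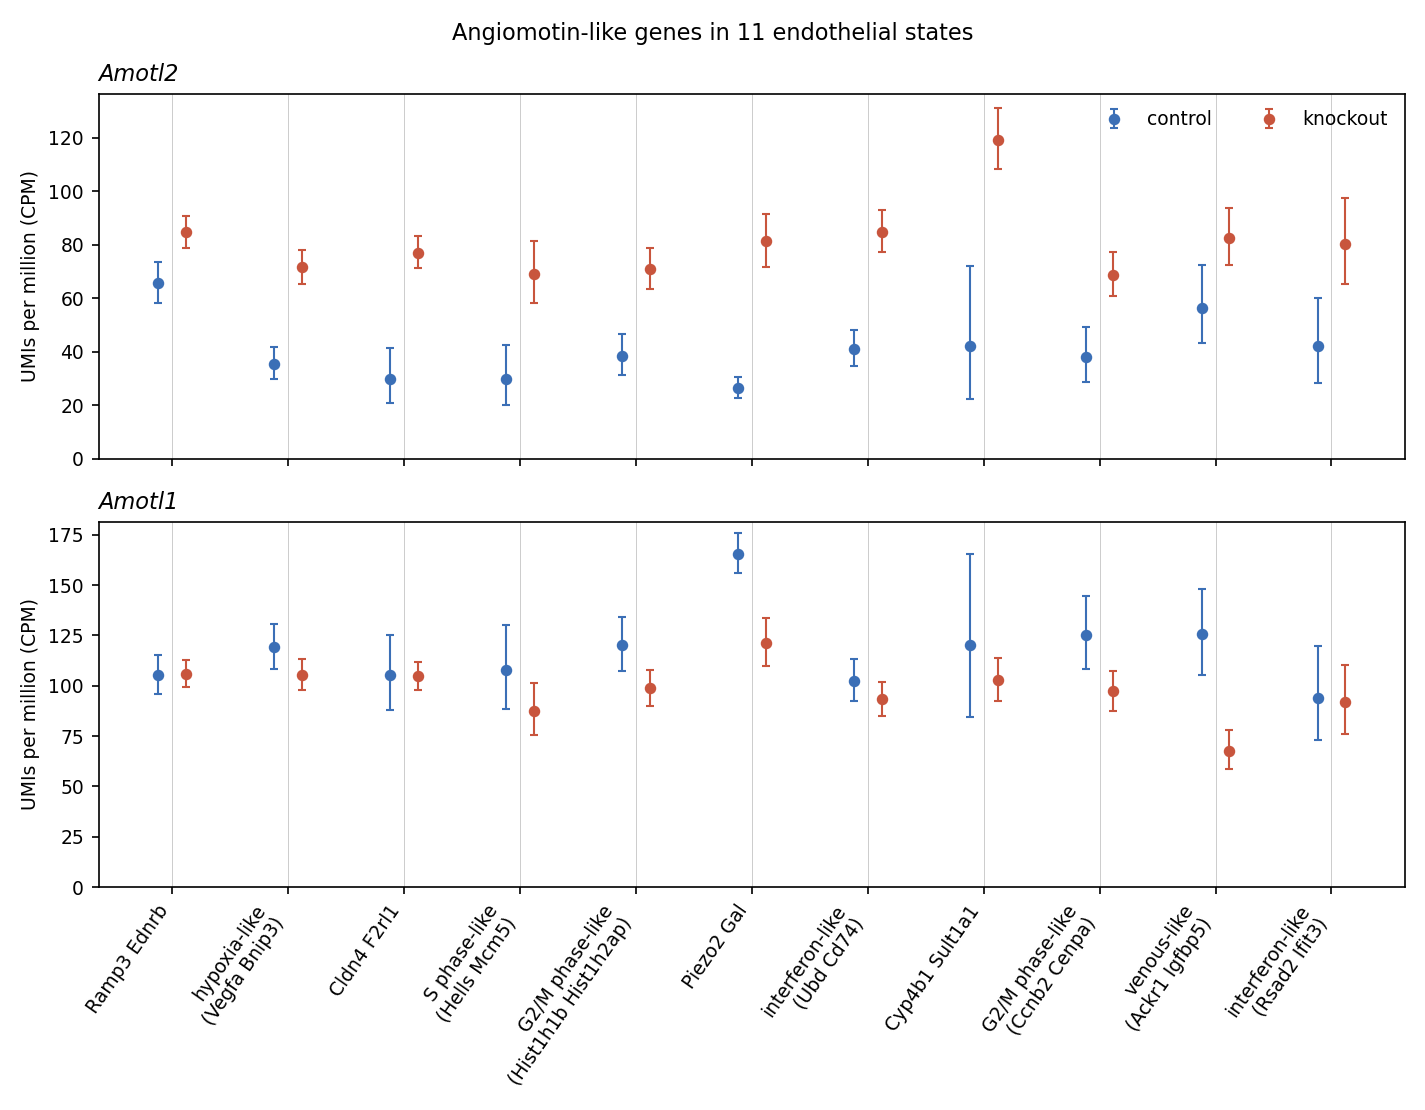
Amotl2 (upper panel) and Amotl1 (lower panel) in 11 endothelial states of the control (blue) and knockout (red) library, in CPM (linear axis from 0), with exact Poisson 95% intervals. Amotl2 was higher in the knockout in each state, least so in the Ramp3 Ednrb state (65.6 and 84.7 CPM), and Amotl1 was furthest apart in the venous-like state (126 and 67.7 CPM).

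Markers of other cell types differed between the libraries in several of these states. In the Ccnb2 state, with Hbb-bs among its leading genes, erythrocyte markers summed to 10.0 CPM in control cells and 211 CPM in the knockout. In the Piezo2 Gal state erythrocyte markers summed to 150.02 CPM in control cells and 1.80 CPM in the knockout, and pericyte or smooth muscle markers to 278 and 68.4 CPM. In the Cldn4 F2rl1 state epithelial markers summed to 41.5 and 106 CPM, and in the Cyp4b1 Sult1a1 state neutrophil markers to 929 and 258 CPM. Some of these sums hold a leading gene of the state itself: Hbb-bs and Kcnj8 in the Piezo2 Gal state and Cldn4 in the Cldn4 F2rl1 state. Whether such sums come from other cells was not tested. With the 5 states left out that had a marker of another cell type among their leading genes, the Amotl2 ratio was 1.71 and Amotl2 was again the member past the size rule. That choice of states was made after the data were seen. Where both libraries were given the same mixture of states, Amotl2 again passed alone, with a ratio of 1.98.

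States were also set by gates, the 10% of cells of each library with the largest share of UMIs in a marker list. Of 11 gates, those on lymphatic and arterial markers are left out, since more cells tied at their lowest score than the gate holds; a lymphatic UMI was found in 84 control and 138 knockout cells. That choice was made after the data were seen. Across the other 9 gates Amotl2 passed the size rule in each, with a ratio between 1.52 (1.22 to 1.90), among cells high in venous markers, and 2.34 (1.88 to 2.94), among cells high in S phase genes. The share over all genes was not computed within gates, so calls in gates have no background beside them. Among cells high in capillary markers it stood at 40.4 CPM in control cells and 91.6 CPM in knockout cells, a ratio of 2.27 (1.81 to 2.86). This gate need not hold the cells of the Ramp3 Ednrb state, in which the capillary markers summed to little more than in the other cells. It therefore cannot show whether the high control level and the small ratio of that state hold by gates. In cells high in immediate early genes, which respond to stimulation and to cell handling, Amotl2 stood at 51.6 CPM in control cells and 120.0 CPM in the knockout, the highest level in a gate in either library. Over the 9 gates it ran from 30.8 to 51.6 CPM in control cells and from 66.7 to 120.0 CPM in the knockout. By gates the knockout levels of Amotl2 were thus not more alike than the control levels. Coarser clusters, 7 with enough cells, gave ratios from 1.31 to 2.67, and finer ones, 12 without the S100a9-led cells, from 1.13 to 2.85. With the pathway genes allowed to shape the clusters, 11 states gave ratios from 1.30 to 3.46. All of these ratios were above 1. The calls of the other genes in single states changed more with the clusters. At the coarser setting neither Amotl1 nor Wwc2 passed in any state, Stk3 passed as lower in 1, Lats1 as higher in 1 and Stk4 as higher in 2. No share over all genes was computed for these other clusters.

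Amotl1 was lower in the knockout in 10 of 11 states. Its ratio was 1.01 (0.899 to 1.13) in the Ramp3 Ednrb state, with 105 and 106 CPM. It passed the size rule in the venous-like state alone, at 126 CPM in control cells and 67.7 CPM in the knockout, a ratio of 0.539 (0.431 to 0.676), where 10.4% of genes passed in either direction. Pericyte or smooth muscle markers summed to 38.2 and 226 CPM in that state, and their part in the ratio was not tested. The highest level of Amotl1 was in the Piezo2 Gal state in both libraries, at 166 CPM in control cells and 121 CPM in the knockout. In the control that state also had the lowest level of Amotl2, and Amotl2 gave 13.8% of the pair there against 40.1% in the knockout. In the Ramp3 Ednrb state the share was 38.4% and 44.4%. The values of the Piezo2 Gal state again set side by side cells that need not be alike. The gates placed the ratios of Amotl1 in another order. Amotl1 passed the size rule among cells high in capillary markers, at 140.0 CPM in control cells and 82.5 CPM in knockout cells, a ratio of 0.589 (0.507 to 0.686), the lowest of the 9 gates. No share over all genes was computed for that gate. Among cells high in venous markers the ratio was 0.801 (0.678 to 0.948), short of the rule. In which cells Amotl1 differed most therefore depended on how the states were set.

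Stk3 was lower in the knockout in 11 of 11 states, which held for 8.39% of genes. The ratio ran from 0.673 (0.561 to 0.807) in the Ramp3 Ednrb state, with 47.5 and 31.9 CPM, to 0.979 (0.831 to 1.16) in the hypoxia-like state, with 59.6 and 58.3 CPM. The interval excluded 1 in the Ramp3 Ednrb and the Piezo2 Gal state. The hypoxia-like state had the highest level of Stk3 in both libraries, with intervals that overlapped with those of the next state. Among knockout cells Stk3 spanned 2.01-fold, with 29.0 CPM in the Ccnb2 state as the lowest level. Of the 9 gates, 8 had a Stk3 ratio below 1 and cells high in hypoxia genes had 1.02 (0.844 to 1.24), and of the 12 finer clusters 1 lay above 1.

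Stk4 was also highest in the hypoxia-like state in both libraries, at 19.4 CPM in control cells and 31.3 CPM in the knockout. The ratio of 1.61 (1.24 to 2.13) passed the size rule there, where 3.9% of genes passed as higher. In the Cldn4 F2rl1 state Stk4 stood at 10.8 CPM on 13 UMIs in control cells and 26.6 CPM in knockout cells, a ratio of 2.46 (1.41 to 4.69) at a mean below 20 CPM. In the Ramp3 Ednrb state it stood at 12.9 and 13.9 CPM, with a ratio of 1.08 (0.782 to 1.498). The Stk4 share of its pair was higher in the knockout in each state, least so in the histone-led state (23.6% and 24.8%) and most so in the Cldn4 F2rl1 state (17.1% and 35.2%). Gates gave a like picture: Stk4 was at 19.2 and 30.2 CPM in cells high in hypoxia genes and at 18.8 and 30.7 CPM in cells high in tip markers, against 14.4 and 14.7 CPM in cells high in G2/M genes and 14.5 and 13.7 CPM in cells high in S phase genes.

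**Figure D3:**
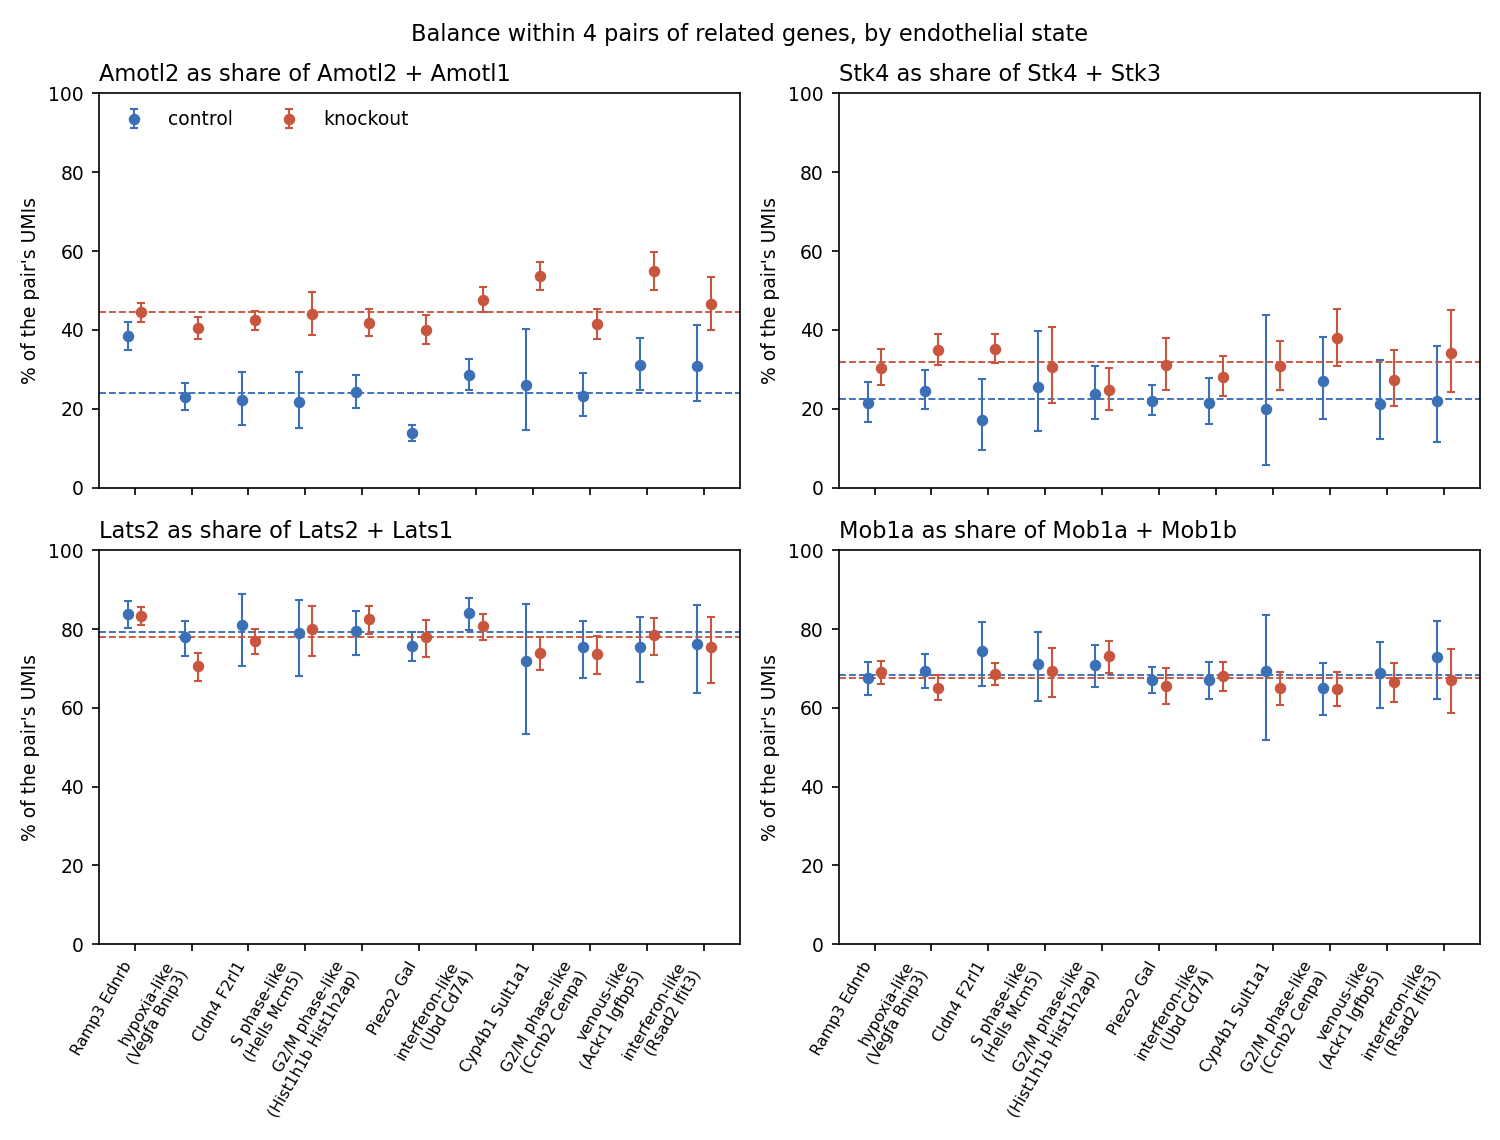
Share of the UMIs of a pair that came from its first-named gene (%), in 11 endothelial states of the control (blue) and knockout (red) library, with exact Clopper-Pearson 95% intervals; dashed lines are the shares over all kept cells. The Amotl2 share was higher in the knockout in each state, between 40.1% and 54.99% against 13.8% to 38.4% in the control, while the Lats2 and Mob1a shares of the libraries lay close together.

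The other genes differed less between the libraries than Amotl2. Wwc2 was highest in the venous-like state in the control, at 122 CPM, and in the Cyp4b1 Sult1a1 state in the knockout, at 124 CPM. It passed the size rule in the Cldn4 F2rl1 state, with 57.3 CPM in control cells and 92.8 CPM in the knockout, a ratio of 1.62 (1.27 to 2.10), where 5.18% of genes passed as higher. In that state the control cells had the lowest level of 7 of the 10 genes (Stk4, Sav1, Lats1, Lats2, Mob1a, Mob1b and Wwc2), on 52 cells. Lats2 was highest in the Ramp3 Ednrb state in the control (89.0 CPM) and in the Ubd Cd74 interferon-like state in the knockout (91.0 CPM), with the Ramp3 Ednrb state next at 89.4 CPM. The levels of Lats2 in the Ramp3 Ednrb state differed by less than counting error, with a ratio of 1.0 (0.889 to 1.14).

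Lats1 was highest in the Cyp4b1 Sult1a1 state in both libraries, at 29.2 CPM on 9 UMIs in control cells and 31.1 CPM in knockout cells. Its ratio was 1.37 (1.04 to 1.80) in the hypoxia-like state and 1.45 (1.04 to 2.04) in the Ubd Cd74 state, both short of 1.5. Of the 9 gates, Lats1 passed the size rule as higher in cells high in hypoxia genes, with 15.3 and 25.5 CPM and a ratio of 1.67 (1.18 to 2.41), and in cells high in tip markers, with 1.57 (1.14 to 2.18). For these gates, too, no share over all genes was computed. Sav1 had ratios on both sides of 1, from 0.682 (0.486 to 0.962) in the S phase-like state to 1.24 (0.954 to 1.62) in the Ccnb2 state. Mob1b ran from 0.859 (0.652 to 1.14) in the histone-led state to 1.46 (1.01 to 2.18) in the Cldn4 F2rl1 state. Mob1a varied least: its levels spanned 1.26-fold across states in the control and 1.29-fold in the knockout, between 71.7 and 94.1 CPM, and no state had an interval that excluded 1.

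**Figure D4:**
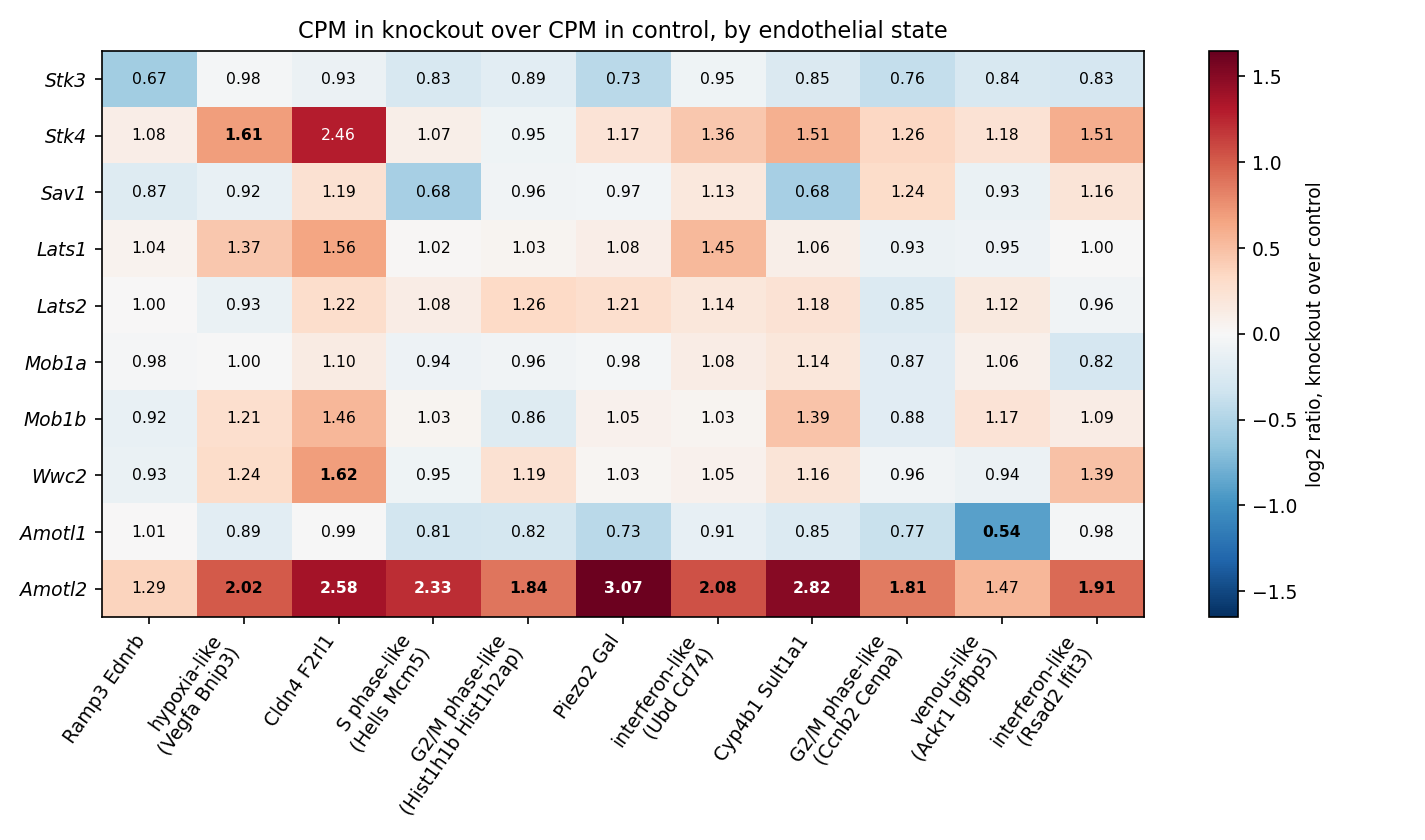
Ratio of CPM in the knockout over CPM in the control for each of the 10 genes (rows) in 11 endothelial states (columns), written in each cell and coloured by its log2 (red higher, blue lower in the knockout); bold marks ratios past the size rule. The Amotl2 row is above 1 throughout, from 1.29 to 3.07, and the Stk3 row is below 1 throughout, from 0.67 to 0.98.

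Across cells, a UMI of Amotl2 was found in a larger share of the knockout cells. After every cell had been thinned to 2000 UMIs, with 164 control and 31 knockout cells below that depth left out, 5.95% of control cells (83 of 1396, 4.76 to 7.32) and 15.4% of knockout cells (419 of 2720, 14.1 to 16.8) had a UMI of Amotl2. By run the shares were 6.48% and 5.23% in the control and 17.0% and 14.3% in the knockout. Without thinning they were 38.8% and 65.8%. At 5000 UMIs per cell they were 17.8% and 33.0%. The shares of Amotl1 at 2000 UMIs were 19.1% and 17.9%, with overlapping intervals. At 5000 UMIs they were 43.3% (40.5 to 46.2) in control cells and 38.2% (36.3 to 40.1) in knockout cells, with intervals apart. Those of Stk3 were 10.0% and 8.38% at 2000 UMIs and 21.7% and 19.7% at 5000 UMIs, with overlapping intervals at both depths. The shares of Mob1a at 2000 UMIs were 13.3% (11.6 to 15.2) in control cells and 16.9% (15.6 to 18.4) in knockout cells, with intervals apart. At 5000 UMIs they were 34.9% and 34.0%, with overlapping intervals, so the difference in Mob1a depended on depth.

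No cluster gave a background for these shares. The cluster led by monocyte markers, with a median depth of 2878 UMIs before thinning, had a UMI of Amotl2 in 4 of 39 cells of at least 2000 UMIs, or 10.3% (2.87 to 24.2), and of Amotl1 in 5, or 12.8% (4.30 to 27.4). Endothelial markers summed to 10065 CPM in these cells, a level between those of the kept control and knockout cells, so they were not free of endothelial RNA. The shares are therefore given as measured and not as numbers of expressing cells.

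The rest of the pathway was described with lists. Of 29 other core and upstream genes, 17 had enough counts, of which 1 was higher and 1 lower past the size rule (2.78% and 5.35% over all genes), with a median log2 ratio of -0.17. Ajuba stood at 11.4 CPM in control cells and 32.1 CPM in the knockout, a ratio of 2.82 (2.50 to 3.19). Dchs1, an atypical cadherin, stood at 62.3 and 28.9 CPM, 2.15-fold lower (2.01 to 2.31). The most abundant of the others were Tjp1, a tight junction scaffold, at 282 and 214 CPM, Taok1, a kinase that activates MST, at 112 and 101 CPM, and Rassf1, which binds MST, at 95.8 and 117 CPM.

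Of 10 MAP4K and GCKIII kinases, which can act beside MST, 5 had enough counts and 1 was lower, against 5.35% over all genes: Map4k4, at 334 and 213 CPM, 1.57-fold lower (1.53 to 1.62). Map4k5 stood at 143 and 119 CPM, Stk25 at 80.9 and 75.6 CPM and Map4k3 at 66.8 and 58.6 CPM, and the list had a median of -0.19. None of 12 measured genes of STRIPAK, the phosphatase complex that counters MST, passed (median -0.12). Its catalytic subunit gene Ppp2ca stood at 186 and 185 CPM, Pdcd10 at 162 and 160.5 CPM and Cttnbp2nl at 132 and 114 CPM. Likewise none of 10 measured genes of YAP, TAZ, TEAD and cofactors passed (median -0.21). The 14-3-3 genes Ywhae, Ywhah and Ywhaq, whose proteins hold phosphorylated YAP in the cytoplasm, stood at 545.5 and 545.1 CPM, 501 and 449 CPM, and 523 and 393 CPM. These medians lie below that of the 10 genes and of all genes.

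Of 21 transcripts known to be induced by YAP and TAZ, a list that holds Amotl2 and Lats2, 14 had enough counts, and 7 were higher and 2 lower past the size rule, against 2.78% and 5.35% over all genes, with a median of 0.62. The ratio was 6.28 for Ankrd1, 2.82 for Ajuba, 2.81 for Tgfb2, 2.03 for Amotl2, 1.91 for Cyr61, 1.73 for Crim1 and 1.64 for Ctgf. Nt5e was 3.76-fold lower and Igfbp3 3.05-fold lower. Amotl2 is itself 1 of the 7 higher genes, so its place among them is no separate result. The list was chosen with earlier results of these data known, and the part of YAP and TAZ in the level of Amotl2 was not tested. Lats2, with a ratio of 1.08, was among the 5 that did not pass, as were Asap1, at 142 and 146 CPM, and Myof, at 133 and 154 CPM.

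**Figure D5:**
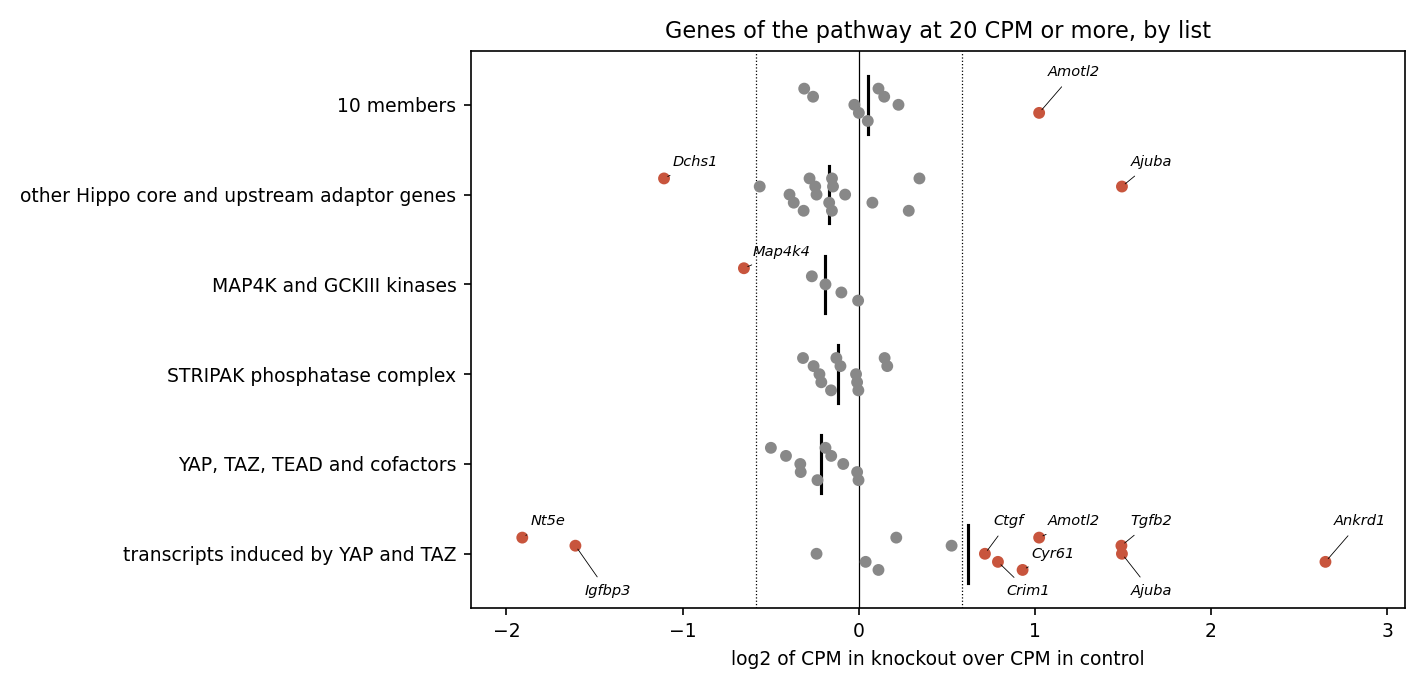
Log2 ratio of CPM, knockout over control, of each gene with a mean of at least 20 CPM, by list; each point is a gene, red points passed the size rule, black bars are list medians and dotted lines mark a ratio of 1.5 either way. Amotl2 stands alone past the line among the 10 genes, whereas 7 of 14 transcripts induced by YAP and TAZ lie past it on the higher side.

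Genes with a pattern like those of the 10 were sought across 24 combinations of state and library, by the Pearson correlation of log2(CPM + 10). These points share libraries, depth and the clusters themselves, so the values are descriptions. All 10 spanned at least 2-fold with the S100a9-led state included, in which Stk4 had 0 UMIs in the knockout, so that up to 3 UMIs, or 25.0 CPM, remained possible. The closest for Amotl2 were Lhx6 (0.85), Fam198b (0.82) and Rasa4 (0.82), and for Amotl1 Pdcl (0.78), Plxnd1 (0.78) and Pcdh12. For Stk3 they were Fam129a (0.83), Lims1 and Zfp703, and for Stk4 Bcar1 (0.88), Nbeal1 and Rragc. For Sav1 they were Ncoa3 (0.76), S100a8 and S100a9.

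For Lats1 the closest were Spen (0.88), Ino80d and Gpbp1l1, and for Lats2 Shroom4 (0.90), Sgms1 and Prex2. For Mob1a they were Rbbp6 (0.95), Dmxl1 and Impad1, for Mob1b Rlim (0.91), 5031425E22Rik and Rc3h1, and for Wwc2 Ppp1r12a (0.95), Kdm6a and Macf1. Without the S100a9-led state, 22 combinations remained and most of these names changed: for Amotl2 they became Mtmr10 (0.92), Robo4 (0.87) and Cebpd, and for Stk4 Rusc2 (0.85), Fbxo32 (0.85) and Ankrd1.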

How the data were processed

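Single-cell RNA sequencing was analysed from 1 control and 1 knockout library. The submitters' processing notes name the mm10 build, Cell Ranger 3.0.0 and Seurat 3.1.1 and give no settings. The authors deposited natural log values of 1 plus 10000 times the UMI share of a gene in its cell, which tested on the values gave back whole UMI counts for 100% of them (tolerance 0.01 UMI). Every deposited cell already had at least 501 genes. Counts, not the deposited scale, had been assumed for the design, and the recovered counts took their place.

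Cells under 500 genes, under 1000 UMIs or above 10% mitochondrial UMIs were dropped, and the 5% with the highest score against simulated doublets were removed per library (129 control and 166 knockout cells). Clusters shallower than 0.333 of their sample without endothelial leading genes, and clusters led by markers of another cell type, were left out (883 control and 395 knockout cells). The rest were clustered again (scanpy 1.11.5, Leiden resolution 0.8, 30 components, 2000 variable genes, 15 neighbours) after subtraction of each library's mean per gene and without the 10 genes and the pathway lists among the variable genes. The first clustering used no integration. Names such as venous-like were rebuilt from marker lists, and, by a rule added after the data were seen, kept only where the summed list was at least 1.5-fold above the other cells.

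UMIs were summed per library, run or state and scaled to CPM. The number of UMIs per gene limits the precision, and intervals (exact conditional, Poisson or Clopper-Pearson, 95%) cover counting error only. The scripts were tested on simulated data. The genes, lists and marker sets were chosen with earlier results of these data known. Named genes were all 10 members, list genes past the size rule and up to 3 others of the highest mean CPM, and the 3 genes of the most similar pattern. Gene positions were matched by symbol to GENCODE M21 (GRCm38). A list gene is not reported here, and its list was computed without it.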

Additional observations from a re-analysis of the deposited data

Results flagged for a closer look

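Amotl2 was also higher in cells that the comparison did not use. Over the cells left out as doublets, as shallow or as led by markers of another cell type (1012 control and 561 knockout cells), Amotl2 stood at 35.5 CPM in the control on 251 UMIs and at 85.8 CPM in the knockout on 592 UMIs, a ratio of 2.42 (2.08 to 2.81). It was the 1 member of the 10 past the size rule there, and the share over all genes was not computed for the cells left out. They come from the same 2 libraries and include doublets, and those led by monocyte markers were not free of endothelial RNA. The ratio is therefore no independent repeat of that in the kept cells. Amotl1 had a ratio of 1.04 (0.938 to 1.151) in these cells, against 0.807 in the kept cells, and Stk3 had 0.848 (0.713 to 1.01). Lats2 and Wwc2 had ratios of 1.34 (1.19 to 1.52) and 1.36 (1.21 to 1.53).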

How the results depend on the processing

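Amotl2 was the 1 member past the size rule under each of 17 other settings of cells, doublets, normalization, weighting, depth, runs, states, filter and threshold, and its ratio ran from 1.71 to 2.62 over the 13 that change it. Without each run in turn the count stayed at 1. Over the same 13 settings Stk3 and Amotl1 stayed below 1 (0.814 to 0.859 and 0.728 to 0.924), and Stk4, Lats1, Mob1b and Wwc2 stayed above 1. Lats2 was below 1 in 1 setting, Mob1a in 3 and Sav1 in 10. The median log2 ratio over all 10 members was 0.08. It became 0.18 as a mean over cells and 0.23 after thinning to 2000 UMIs, and ranged from 0.04 to 0.15 with each run left out. The cause was not tested. The median span of the members across states was 2.05-fold with the S100a9-led state. It was 1.49-fold at Leiden resolution 0.4, 2.53-fold at 1.2, 1.48-fold by gates, and, in settings chosen after the data were seen, 1.43-fold without the lymphatic and arterial gates, 1.75-fold without the S100a9-led state and 2.69-fold with the pathway genes among the variable genes. No paired analysis was possible because each group is 1 library. Depth limits Stk4 and Lats1 and the small control states, and a difference between mice cannot be told apart from one between libraries.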
